A study of Mus musculus with 9 samples.

Results

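The protocadherin beta genes lie side by side in a tandem cluster on mouse chromosome 18, and 7 of the 22 genes of that cluster are described here: Pcdhb7, Pcdhb9, Pcdhb17, Pcdhb19, Pcdhb20, Pcdhb21 and Pcdhb22. Each was read by 1 probe set that the platform annotation assigns to that symbol alone, so that 7 of the 12393 genes with such a probe set, and 7 of the 22690 probe sets, make up the group. The members were proposed from how these probe sets differed between the cell lines of the series. Their levels and differences are therefore given as a description, and no p-value of a member is printed. Counts of members past a threshold are given below, but they come from the same contrasts and support nothing.

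RNA from 3 related mouse cell lines was hybridised to Affymetrix arrays, 3 per line. SV5-NN4 is a stable clone that carries wild-type N-ras on top of simian virus 40 (SV40) large T antigen; SV5 is a stable clone transformed by SV40 large T antigen; and NIH 3T3 is the wild-type mouse embryo fibroblast line from which both derive. All lines grew in medium with 10% calf serum, and no added agent is named in the labels. Each transformed line is 1 clone, the labels used here name no promoter for T antigen or N-ras, and what a transgene did and what sets 1 clone apart cannot be told apart. Nothing in the labels says that replicates came from separate cultures, so errors and p-values cover only the scatter of these arrays and may be technical.

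Protocadherins are cell surface proteins of the cadherin superfamily. The clustered ones are encoded in 3 neighbouring arrays of genes, named alpha, beta and gamma, and are best known from neurons, where each cell uses a few of them and the resulting mixture on the membrane lets a cell tell its own processes from those of others by homophilic binding. Unlike the alpha and gamma genes, which splice a variable exon to shared constant exons, each beta gene is a single coding exon behind its own promoter and lacks the shared cytoplasmic part. In mouse and human cells the choice among promoters involves the insulator protein CTCF and cohesin, and silencing of the unchosen ones involves DNA methylation and, in mouse, the chromatin protein Smchd1.

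The values are log2(intensity + 1), called the log2 level below, and a difference of 1 on this scale is a 2-fold change. The added 1 slightly shrinks the differences of dim probe sets. Array medians were 56.2 to 62.35 intensity units and upper quartiles 165.2 to 239.7. The 9 control probe sets for bacterial transcripts read 3.18 to 4.25, and that range is taken as the floor. RNA integrity was followed by how far the 3' probe sets of a transcript exceeded its 5' ones. This ratio was 3.659 to 4.628 (log2) for Actb in SV5-NN4, 2.417 to 4.325 in SV5 and 4.255 to 5.063 in NIH 3T3, and for Gapdh it was 2.663 to 3.523, 2.362 to 3.031 and 2.645 to 5.207 in the same lines. Nras, the added gene, was 0.05 to 0.27 higher in SV5-NN4 than in SV5 at its 3 probe sets (adjusted p of 0.55 to 0.98 in limma), so the arrays gave no check of the labels from the transgene. Of the fibroblast markers, all 8 lay above the floor on every SV5 and NIH 3T3 array and 7 did so on every SV5-NN4 array, whereas Snap25, Rbfox3, Nefl, Nefm and Elavl4, 5 of the 10 neuron markers, were at or under the floor on all 9 arrays. Other neuron markers were above it: Syp averaged 6.55 in SV5-NN4, 6.65 in SV5 and 6.59 in NIH 3T3, and Stmn2 averaged 5.01, 5.1 and 5.29 in the same lines.

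All 7 members were lowest in SV5-NN4. Averaged over the members, the log2 level was 5.19 ± 0.31 in SV5-NN4, 6.86 ± 0.42 in SV5 and 6.33 ± 0.21 in NIH 3T3 (SD over arrays, n = 3 each). By the mean of each line, SV5 was highest for 6 members and NIH 3T3 for 1, Pcdhb7. By line means alone, most members were higher in SV5 than in NIH 3T3 and lower in SV5-NN4. For Pcdhb7 and Pcdhb9 the SV5 and NIH 3T3 means lay within 1 SE of each other. This grouping is loose, as Pcdhb17 had pairs of mixed sign and no member was called by limma between SV5 and NIH 3T3. They all encode homophilic adhesion receptors of the same build, and no difference in role between the beta isoforms is drawn on here. They are therefore taken by stretches of the cluster, starting with its last genes.

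Pcdhb20, Pcdhb21 and Pcdhb22 are the last genes of the beta cluster. Pcdhb20 (probe set 1449583_at) read 4.97, 5.7 and 5.64 in SV5-NN4, against 7.22, 7.85 and 8.17 in SV5 and 6.64, 7.32 and 7.01 in NIH 3T3, for replicates 1, 2 and 3. Every SV5-NN4 array lay below every array of the other lines, whereas SV5 and NIH 3T3 overlapped, the lowest SV5 array reading under the highest NIH 3T3 array. The difference was -2.31 (SE 0.15, 4.95-fold lower) between SV5-NN4 and SV5 and -1.55 (SE 0.15, 2.93-fold lower) between SV5-NN4 and NIH 3T3. Between SV5 and NIH 3T3 the difference was 0.76 (SE 0.15), positive in each of the 3 pairs of equal replicate number.

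Pcdhb21 (probe set 1420422_at) read 4.93, 6.09 and 4.68 in SV5-NN4, against 6.32, 7.3 and 6.58 in SV5 and 5.75, 6.76 and 5.34 in NIH 3T3. The replicate 2 arrays were the highest in every line, and 41.7% of the variance of this probe set over the 9 arrays lay between replicate numbers, so that its lines are separated more clearly within pairs than by their means. SV5-NN4 lay below SV5 without overlap and overlapped NIH 3T3. The difference was -1.5 (SE 0.17) between SV5-NN4 and SV5, -0.72 (SE 0.17) between SV5-NN4 and NIH 3T3, and 0.78 (SE 0.17) between SV5 and NIH 3T3.

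Pcdhb22 (probe set 1418941_at) had the smallest difference of the members between SV5-NN4 and SV5, and the most even one over the pairs of that comparison. It read 6.06, 6.49 and 6.48 in SV5-NN4, against 6.91, 7.36 and 7.29 in SV5 and 6.51, 6.68 and 6.65 in NIH 3T3. The 3 lines did not overlap, although the highest SV5-NN4 array, at 6.49, came close to the lowest NIH 3T3 array, at 6.51. The pairs of SV5-NN4 with SV5 gave -0.85, -0.87 and -0.81, an SD of 0.03 over the pairs, and the fitted difference was -0.85 (SE 0.12, 1.8-fold). SV5-NN4 differed from NIH 3T3 by -0.27 (SE 0.12) and SV5 from NIH 3T3 by 0.58 (SE 0.12).

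Pcdhb17 and Pcdhb19 lie just before these genes, with Pcdhb18 between them. Pcdhb19 (probe set 1420443_at) read 5.15, 5.51 and 4.47 in SV5-NN4, against 5.9, 6.83 and 6.27 in SV5 and 5.44, 5.75 and 5.47 in NIH 3T3. All SV5 arrays lay above all arrays of the other lines, while SV5-NN4 and NIH 3T3 overlapped. The difference was -1.29 (SE 0.21) between SV5-NN4 and SV5, -0.51 (SE 0.21) between SV5-NN4 and NIH 3T3, and 0.78 (SE 0.21) between SV5 and NIH 3T3.

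Pcdhb17 (probe set 1448933_at) had the largest share of variance among the members that followed neither line nor replicate number, 33%. It read 5.27, 5.85 and 5.31 in SV5-NN4, against 6.45, 6.8 and 7.71 in SV5 and 6.63, 6.12 and 5.44 in NIH 3T3. The SV5-NN4 arrays lay below the SV5 arrays and overlapped those of NIH 3T3. SV5-NN4 differed from SV5 by -1.51 (SE 0.41), with pairs of -1.18, -0.95 and -2.39, and from NIH 3T3 by -0.58 (SE 0.41), with pairs of -1.36, -0.27 and -0.13. That last difference was -0.12 without NIH 3T3 replicate 1 and -1.03 without NIH 3T3 replicate 3. The pairs of SV5 with NIH 3T3 were of mixed sign, at -0.18, 0.68 and 2.26.

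**Figure D1:**
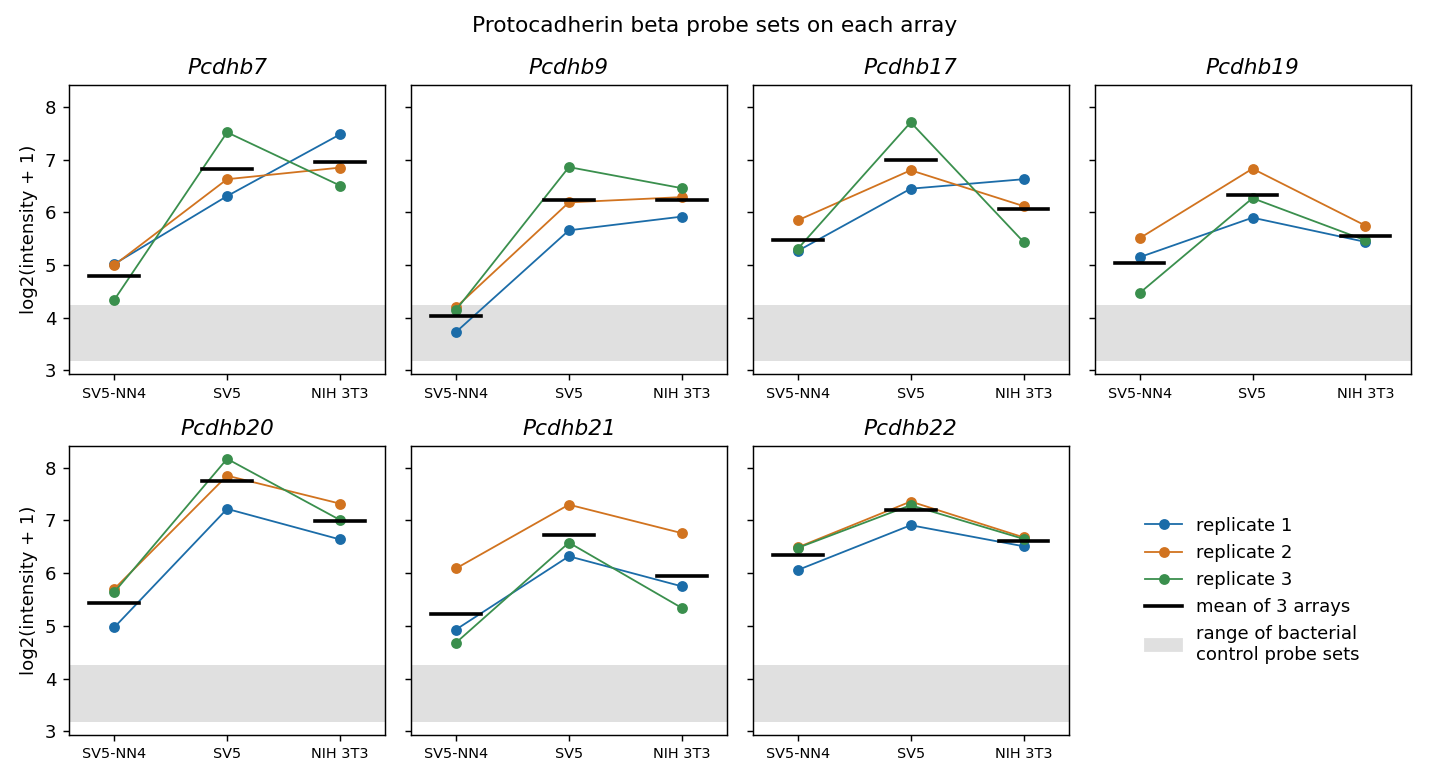
The log2 level of each member (vertical axis) is plotted for SV5-NN4, SV5 and NIH 3T3, with the arrays of equal replicate number joined by a line, black bars for the mean of 3 arrays and a grey band for the range of the bacterial control probe sets. In all 7 panels the SV5-NN4 arrays lie below the SV5 arrays, and for Pcdhb9 they lie inside the control band.

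Pcdhb7 and Pcdhb9 lie further forward in the cluster, with Pcdhb8 between them, and make up the other group by line means. Pcdhb9 (probe set 1422640_at) read 3.73, 4.2 and 4.15 in SV5-NN4, against 5.66, 6.19 and 6.86 in SV5 and 5.92, 6.29 and 6.46 in NIH 3T3. SV5 and NIH 3T3 lay in the same range (difference 0.01, SE 0.18), and the SV5-NN4 arrays were all within the bacterial control range of 3.18 to 4.25, where the array gives only an upper bound of the level. The fitted difference was -2.21 (SE 0.18) between SV5-NN4 and SV5 and -2.2 (SE 0.18) between SV5-NN4 and NIH 3T3. With SV5-NN4 set to the top of the control range, 4.25, the line lay at least 3.98-fold lower than SV5, whose mean was 6.24, and at least 3.95-fold lower than NIH 3T3, whose mean was 6.23.

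Pcdhb7 (probe set 1449527_at) read 5.02, 5 and 4.34 in SV5-NN4, against 6.31, 6.63 and 7.52 in SV5 and 7.48, 6.85 and 6.51 in NIH 3T3. SV5-NN4 lay below the other lines without overlap, by -2.03 (SE 0.39, 4.08-fold) against SV5 and by -2.16 (SE 0.39, 4.46-fold) against NIH 3T3. SV5 and NIH 3T3 differed by -0.13 (SE 0.39), with pairs of -1.17, -0.22 and 1.01, so their order was not settled. It turned to 0.21 without NIH 3T3 replicate 1 and to 0.32 without SV5 replicate 1.

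In the comparison of SV5-NN4 with SV5, which asks what goes with added N-ras in T antigen-transformed cells, the member differences ran from -2.31 to -0.85 with a median of -1.51, beside a median of 0.008 over all probe sets, and the median stays -1.51 with Pcdhb9 at its bound. All 21 pairs of equal-numbered arrays, 3 for each of 7 members, were lower in SV5-NN4, where 19.6% of all probe sets were lower in 3 of 3 pairs. The arrays of the 2 lines did not overlap for 7 of 7 members, and 3.72% of all probe sets were lower without overlap. At an adjusted p under 0.05 in limma with replicate number as a blocking factor (the paired limma fit), 4 of 7 members were lower (Pcdhb9, Pcdhb20, Pcdhb21 and Pcdhb22), where 0.555% of all probe sets were called lower and 0.864% called in either direction. At an unadjusted p under 0.05 all 7 were lower, where 6.34% of all probe sets were. All of these counts come from the contrast on which the members were proposed. Without the replicate block 0 of 7 were called, where 0.0793% of all probe sets were called lower. The number called was 2 without SV5 replicate 1, 2 or 3 or without SV5-NN4 replicate 1 or 3, 1 without SV5-NN4 replicate 2, and 7 without NIH 3T3 replicate 1.

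The replicate 3 pair gave the largest difference between SV5-NN4 and SV5 for 6 of the 7 members, Pcdhb22 being the exception. SV5 replicate 3 was the highest SV5 array for 4 members, and it also had the lowest 3' to 5' ratio of Actb among the 9 arrays, 2.417 on the log2 scale. In every pair the SV5-NN4 array had the higher ratio: Actb read 4.073, 4.628 and 3.659 in SV5-NN4, against 3.732, 4.325 and 2.417 in SV5, and Gapdh read 2.663, 3.523 and 3.049 in SV5-NN4, against 2.45, 3.031 and 2.362 in SV5. The replicate 3 arrays also had the highest upper quartiles, 239.7 in SV5-NN4, 235 in SV5 and 218.7 in NIH 3T3. The other arrays had 165.2 to 187.3. The parts of RNA integrity and of this intensity difference in the member differences were not tested. Without SV5 replicate 3 the differences were -2.15 for Pcdhb20, -1.99 for Pcdhb9, -1.46 for Pcdhb7, -1.29 for Pcdhb21, -1.16 for Pcdhb19, -0.95 for Pcdhb17 and -0.84 for Pcdhb22. That array thus moved the value of Pcdhb17 by over 1.5 times and left all 7 members lower in SV5-NN4.

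**Figure D2:**
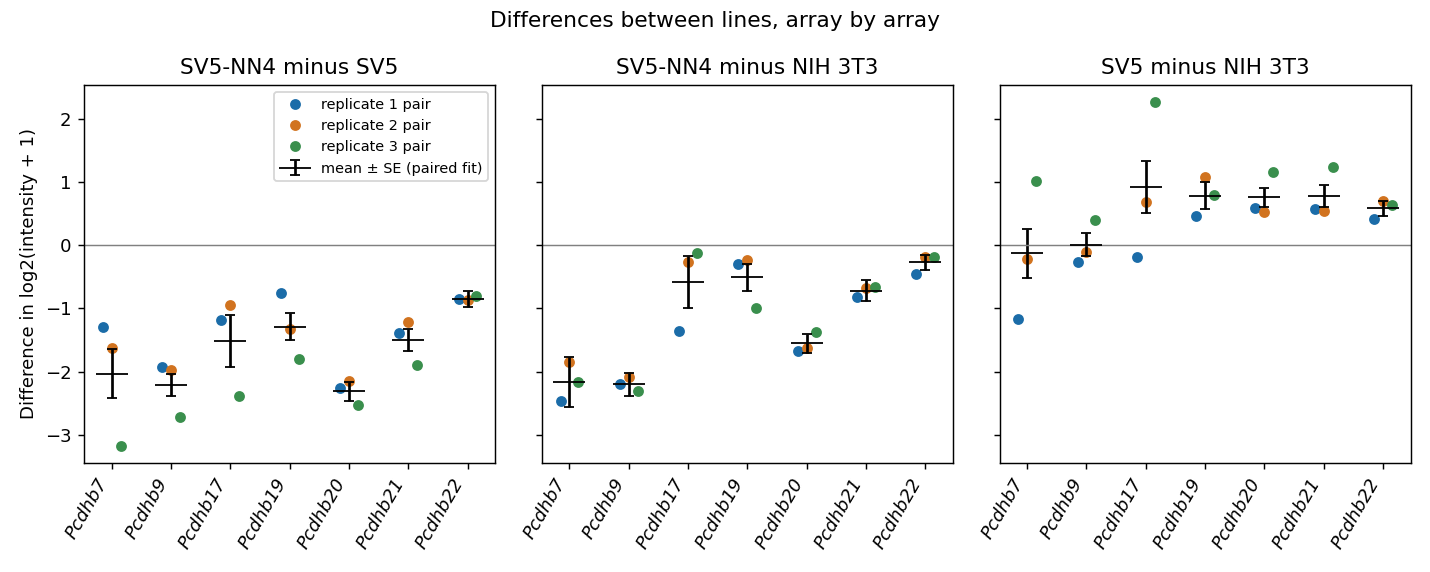
The difference in log2(intensity + 1) is plotted for each member, with 1 coloured point per pair of equal-numbered arrays and a black bar for the fitted mean with its SE, for SV5-NN4 minus SV5, SV5-NN4 minus NIH 3T3 and SV5 minus NIH 3T3. All points of the panels with SV5-NN4 lie below 0, and in SV5 minus NIH 3T3 only Pcdhb7, Pcdhb9 and Pcdhb17 have points on both sides of 0.

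Against NIH 3T3, SV5-NN4 was lower for all 7 members, with differences of -2.2 to -0.27 and a median of -0.72, beside a median of -0.029 over all probe sets. All 21 pairs were again lower, where 19% of all probe sets were lower in 3 of 3 pairs. The members separated here by size: Pcdhb7, Pcdhb9 and Pcdhb20 lay at -2.2 to -1.55, and the other 4 at -0.72 to -0.27. The arrays did not overlap for 4 of 7 members, where 3.11% of all probe sets were lower without overlap. In the paired limma fit 3 of 7 were called lower (Pcdhb7, Pcdhb9 and Pcdhb20), where 0.516% of all probe sets were called lower and 1.65% in either direction. At an unadjusted p under 0.05, 5 of 7 were lower, where 7.1% of all probe sets were. Without the replicate block 0 of 7 were called, against 0.0705% of all probe sets called lower. The number called was 0 without NIH 3T3 replicate 2 or SV5-NN4 replicate 2, 1 without SV5-NN4 replicate 1 or 3, and 2 without NIH 3T3 replicate 3 or SV5 replicate 2.

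Between SV5 and NIH 3T3 the members differed by -0.13 to 0.92, with a median of 0.76, beside a median of -0.036 over all probe sets. Of the 21 pairs, 16 were higher in SV5 and 5 lower, and for 4 members (Pcdhb19, Pcdhb20, Pcdhb21 and Pcdhb22) all 3 pairs were higher, where 12.9% of all probe sets had 3 pairs higher. The arrays of 2 members, Pcdhb19 and Pcdhb22, did not overlap, where 2.16% of all probe sets were higher without overlap. The paired limma fit called 0 of 7 members, where 0.0617% of all probe sets were called, and had 4 higher at an unadjusted p under 0.05, where 8.56% of all probe sets were; limma without the block called 0 as well, where it called 0.00441% of all probe sets. Without SV5 replicate 3 the difference was 0.37 for Pcdhb17, -0.7 for Pcdhb7 and 0.57 to 0.64 for Pcdhb19, Pcdhb20, Pcdhb21 and Pcdhb22. A missed call does not show that the lines were alike. The 3' to 5' ratio of Actb was lower in SV5 in each pair, at 3.732, 4.325 and 2.417 in SV5, against 4.255, 4.425 and 5.063 in NIH 3T3, and that of Gapdh was 2.45, 3.031 and 2.362 in SV5, against 2.645, 2.989 and 5.207 in NIH 3T3. NIH 3T3 replicate 3 had the highest ratio of the 9 arrays for both transcripts, and the part of RNA integrity in this comparison was not tested either. The comparisons share arrays, SV5 standing in the first and the last and NIH 3T3 in the last pair, so their values for a member are not independent of each other.

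Most of the variance of each member followed the line. Between 55.2% (Pcdhb21) and 90.6% (Pcdhb9) of a member's variance over the 9 arrays lay between lines, and 0.3% (Pcdhb7) to 41.7% (Pcdhb21) between replicate numbers. The medians over all probe sets were 14.6% between lines and 59.5% between replicate numbers. As the members were chosen for differing between lines, a high line share is part of the choice. After the mean of each replicate number was subtracted, each member followed the mean of the other 6 over the 9 arrays with Pearson's r of 0.85 (Pcdhb17) to 0.97 (Pcdhb20), and the 21 pairs of members gave r of 0.67 to 0.97 with a median of 0.86. These points share the arrays and the line differences by which the members were chosen. The probe sets all carry the plain _at suffix, which Affymetrix gives to probe sets designed for a single transcript, but beta isoforms are close in sequence and signal shared between neighbours was not tested.

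The other 15 beta genes, on 16 probe sets, often read at the floor. Of their 48 values per line, 24 in SV5-NN4, 25 in SV5 and 26 in NIH 3T3 were at or under 4.25, whereas this held for 3 of 21 member values in SV5-NN4, all of Pcdhb9, and for 0 of 21 in SV5 and in NIH 3T3. The differences of the other beta probe sets between SV5-NN4 and SV5 ran from -0.26 (Pcdhb3) to 0.31 (Pcdhb10) with a median of 0.03, and the paired limma fit called 0 of 16, with 0 at an unadjusted p under 0.05, in each of the 3 comparisons. They were left out of the group with these results known, so the contrast with the members is set by the choice, and a probe set at the floor could show no fall.

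Among the other beta genes read above the floor in all lines, Pcdhb5 averaged 5.45 ± 0.09 in SV5-NN4, 5.57 ± 0.13 in SV5 and 5.57 ± 0.17 in NIH 3T3 (SD, n = 3 each). Pcdhb2 averaged 5.47 ± 0.47 in SV5-NN4, 5.49 ± 0.66 in SV5 and 5.33 ± 0.06 in NIH 3T3. SV5-NN4 minus SV5 was -0.12 (SE 0.11, adjusted p = 0.83 in limma) for Pcdhb5, with all 3 pairs lower at -0.12, -0.16 and -0.07, and -0.02 (SE 0.22) for Pcdhb2, with pairs of both signs. Pcdhb5 was also lower in all 3 pairs of SV5-NN4 with NIH 3T3 (-0.11, SE 0.11, adjusted p = 0.66).

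By position, 5 of the 7 members are among the last 6 genes of the cluster, in the order of the RefSeq gene table. The gene inside that stretch that is not a member, Pcdhb18, averaged 4.23 in SV5-NN4, 4.13 in SV5 and 4.19 in NIH 3T3, within the control range. Pcdhb8, between Pcdhb7 and Pcdhb9, averaged 4.74 in SV5-NN4, 4.84 in SV5 and 4.95 in NIH 3T3, a difference of -0.1 (SE 0.17) between SV5-NN4 and SV5.

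**Figure D3:**
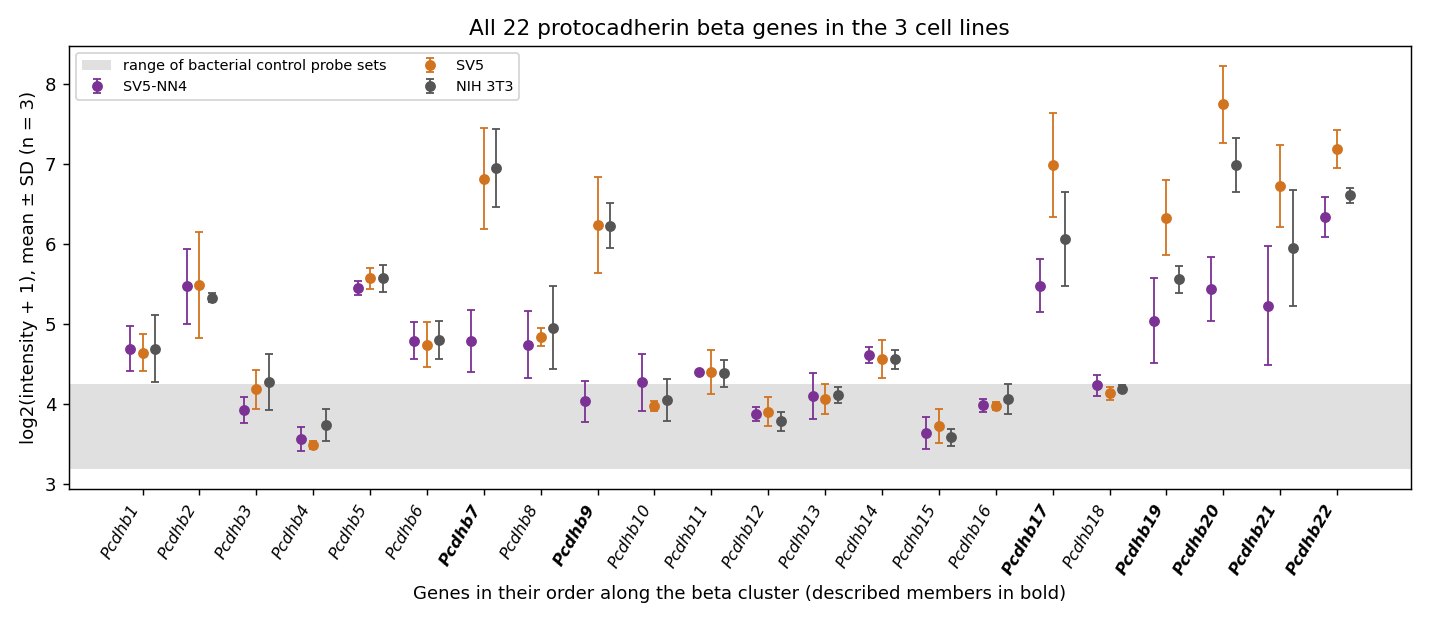
The log2 level (mean ± SD of 3 arrays) of all 22 beta genes is plotted in their order along the cluster for SV5-NN4, SV5 and NIH 3T3, with members in bold, a gene with several probe sets at its brightest, and a grey band for the bacterial controls. SV5-NN4 lies lowest for every member, and the other genes differ between SV5-NN4 and SV5 by -0.26 to 0.31, whether in the band or above it, as Pcdhb2 and Pcdhb5 are; heights of different genes are not comparable, as each probe set has its own brightness.

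No other beta probe set and no alpha probe set was called. The 6 probe sets annotated to several alpha genes at once differed between SV5-NN4 and SV5 by -0.36 to 0.06 with a median of -0.08, and limma called 0 of 6, with 0 at an unadjusted p under 0.05. Between SV5-NN4 and NIH 3T3 all 6 were lower, by -0.73 to -0.03 with a median of -0.17; limma called 0, and 1 was lower at an unadjusted p under 0.05 (-0.73, SE 0.21, adjusted p = 0.13), with pairs of -0.14, -0.83 and -1.23. Between SV5 and NIH 3T3 the differences were -0.37 to 0.05, with 0 called and 0 at an unadjusted p under 0.05. The 6 probe sets read between 3.56 and 5.17 on all arrays. At or under the floor were 8 of 18 values in SV5-NN4, 4 of 18 in SV5 and 4 of 18 in NIH 3T3. Values at the floor could show no fall. The gamma cluster had 0 probe sets with a symbol in the annotation, so none of its genes could be called.

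Among the genes around the clusters none was called. Of 18 listed neighbours, all measured, 12 were higher and 6 lower in SV5-NN4 than in SV5, with a median of 0.07 beside 0.01 over all genes. The paired limma fit called 0, with 2 higher and 0 lower at an unadjusted p under 0.05. Taf7, a subunit of the general transcription factor TFIID, lies between the beta and gamma clusters next to Slc25a2. It averaged 5.01 ± 0.48 in SV5-NN4 and 4.83 ± 0.32 in SV5 (SD, n = 3 each), a difference of 0.18 (SE 0.18, adjusted p = 0.85 in limma). Slc25a2, a mitochondrial carrier of basic amino acids, read at the floor, with 3.94 ± 0.21 in SV5-NN4 and 3.9 ± 0.24 in SV5.

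Protocadherins and large cadherins outside the clusters had a median difference of -0.02 between SV5-NN4 and SV5 over 11 measured of 21 listed genes. Limma called 0 of them in any comparison, with 1 higher and 1 lower between SV5-NN4 and SV5 at an unadjusted p under 0.05. The lower one was Pcdh18, a protocadherin of the delta class, which averaged 7.49 ± 0.11 in SV5-NN4 and 8.28 ± 0.69 in SV5 (difference -0.8, SE 0.28, adjusted p = 0.28) and is named after its values were seen. Pcdh1, also a delta protocadherin, differed by -0.03 (SE 0.14). These counts use the brightest probe set of a gene, which for Pcdh7 differed by 0.1 (SE 0.17) between SV5-NN4 and SV5. Another Pcdh7 probe set, nearly as bright, differed by 1.12 (SE 0.29, adjusted p = 0.15 in limma). Between SV5 and NIH 3T3 that probe set differed by -1.39 (SE 0.29, adjusted p = 0.13 in limma).

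Regulators of the clusters were read as a list of 24 genes, of which 17 were measured and Smchd1 was not among them. The paired limma fit called 0 in any comparison. Between SV5-NN4 and SV5, 10 were higher and 7 lower with a median of 0.02. At an unadjusted p under 0.05 1 was higher, the maintenance methyltransferase Dnmt1 (1.01, SE 0.28, adjusted p = 0.17). At the same threshold 2 were lower. They were the cohesin loader Nipbl (-0.64, SE 0.15, adjusted p = 0.1) and the histone methyltransferase Setdb1 (-0.34, SE 0.12, adjusted p = 0.28). All 3 are named after their values were seen. Another Dnmt1 probe set differed by 0.98 (SE 0.19, adjusted p = 0.076 in limma). Other, dimmer Setdb1 probe sets differed by 0.03 (SE 0.17) and 0.07 (SE 0.16). Ctcf, the insulator protein that binds the cluster promoters, averaged 7.84 ± 0.56 in SV5-NN4 and 7.76 ± 0.57 in SV5 (difference 0.08, SE 0.29, adjusted p = 0.98). Dnmt3b, the methyltransferase that in mouse methylates these promoters in the embryo, averaged 5.9 ± 0.23 in SV5-NN4, 6.01 ± 0.05 in SV5 and 6.42 ± 0.08 in NIH 3T3. Its difference was -0.11 (SE 0.13, adjusted p = 0.88) between SV5-NN4 and SV5 and -0.52 (SE 0.13, adjusted p = 0.1) between SV5-NN4 and NIH 3T3.

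Genes that process clustered protocadherins or bind them, such as the sheddase Adam10 and subunits of gamma-secretase, had a median difference of -0.13 between SV5-NN4 and SV5 over 11 measured of 14 listed genes. Limma called 0 in any comparison, with 1 higher and 1 lower between SV5-NN4 and SV5 at an unadjusted p under 0.05. Adam10 differed by -0.01 (SE 0.14) between SV5-NN4 and SV5.

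**Figure D4:**
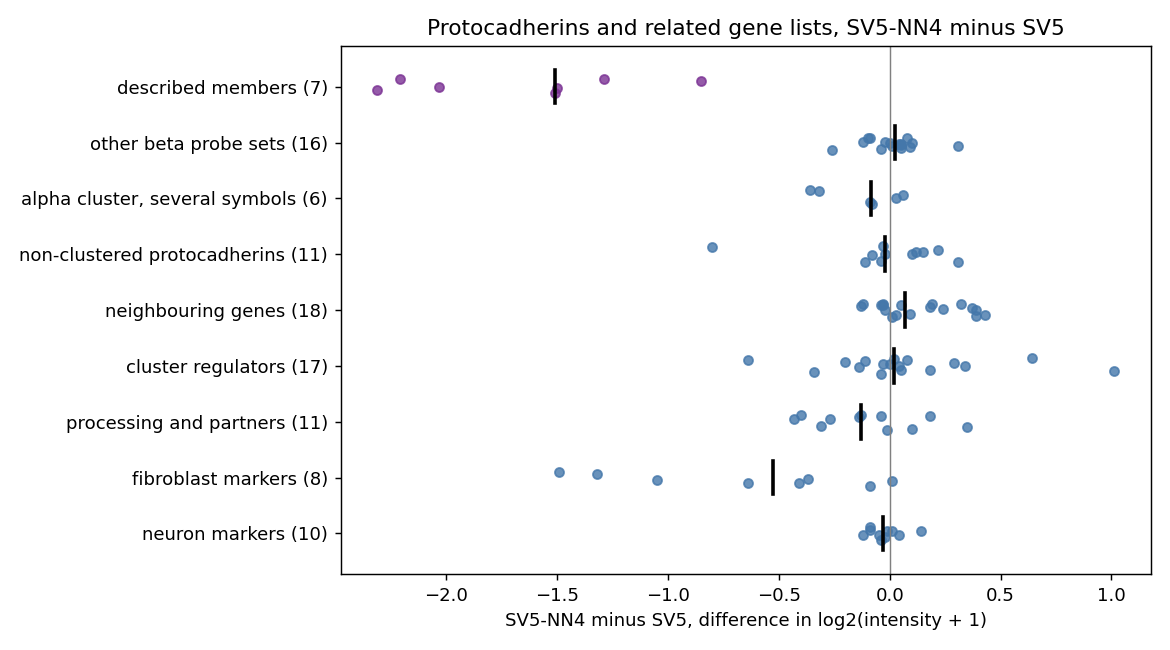
The difference in log2(intensity + 1), SV5-NN4 minus SV5, is plotted for each probe set or gene of the members, the other beta and alpha probe sets and 6 gene lists, with the number measured in parentheses and a black bar for the median. The members run from -2.31 to -0.85, and the medians of the other sets run from -0.53 for fibroblast markers to 0.07 for neighbouring genes.

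Most fibroblast markers were lower in SV5-NN4 than in SV5, as the members were. Of 8, 7 were lower and 1 higher, with a median of -0.53 beside 0.01 over all genes. The paired fit called 1 lower, and 5 of the 8 passed an unadjusted p of 0.05, all downward. Their summed intensity was 22560 to 35750 in SV5-NN4, against 32860 to 51030 in SV5 and 22770 to 46090 in NIH 3T3. Col3a1, a fibrillar collagen chain, was the gene called between SV5-NN4 and SV5 and fell by 1.05 (SE 0.15, adjusted p = 0.034 in the paired limma fit). That call was lost without the block and without NIH 3T3 replicate 2. It was also lost on leaving out any 1 array of SV5-NN4 or SV5, where the adjusted p reached up to 0.31. Col1a1, a chain of type I collagen, and Fn1, fibronectin, had larger differences that were not called, -1.49 (SE 0.34, adjusted p = 0.11 in limma) and -1.32 (SE 0.25, adjusted p = 0.068). Vim, which encodes the intermediate filament vimentin, differed by 0.01 (SE 0.12). These 3 are named after their values were seen. Neuron markers had a median of -0.03 over 10 genes and a summed intensity of 182.3 to 281.7 in SV5-NN4, against 195.3 to 285.5 in SV5 and 213.4 to 307.2 in NIH 3T3, and limma called 0, with 0 at an unadjusted p under 0.05. Glia, epithelium, endothelium, immune and muscle markers had medians of -0.12 to 0.09, also with 0 called and 0 at an unadjusted p under 0.05. The part of the fibroblast markers' shift in the member differences was not tested, and in bulk samples fewer cells that use a gene and less RNA per cell cannot be told apart.

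The 10 genes whose levels followed the mean of the members most closely were found among 7137 genes at or above the median brightness, by Pearson's r over the 9 arrays after the mean of each replicate number was subtracted. They were Aldh6a1, a mitochondrial dehydrogenase of valine breakdown (r = 0.984), Rsrc1 (0.982), the lysosomal acid ceramidase Asah1 (0.981), Armcx1 (0.978), Tspyl1 (0.978), the cholesterol exporter Abca1 (0.971), Ankrd44 (0.966), the membrane protein Itm2b (0.966), the Wnt pathway modulator Dact1 (0.965) and Slc35f5 (0.964). Having been picked for likeness from many genes, these values of r are a description. Itm2b averaged 10.34 ± 0.31 in SV5-NN4, 11.66 ± 0.3 in SV5 and 11.32 ± 0.39 in NIH 3T3 (SD, n = 3 each). Tspyl1 averaged 7.54 ± 0.36 in SV5-NN4, 8.65 ± 0.37 in SV5 and 8.15 ± 0.37 in NIH 3T3. All 10 were highest in SV5 and lowest in SV5-NN4, an order set by picking them for likeness to the mean of the members. Their differences between SV5-NN4 and SV5 ran from -1.32 (Itm2b) to -0.73 (Rsrc1), and 5 of the 10 remained under quantile normalization.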

How the data were processed

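The authors deposited linear intensities per probe set; per the submitters' processing notes RMA was used, with neither version nor settings named. The deposited values of the 9 arrays did not share 1 distribution, as their upper quartiles ran from 165.2 to 239.7. Per the labels' protocols, 5 ug of total RNA was labelled by the Affymetrix one-cycle procedure. Values were analysed as log2(intensity + 1). By the platform annotation, 1 symbol stood at 20393 probe sets, several at 691 and none at 1606. A gene outside the beta cluster stands for its brightest probe set. Gene order came from a RefSeq table, used without coordinates.

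Differences were fitted with limma 3.58.1 (R 4.3.3) on all 9 arrays, with a mean per line and the replicate number as a block, and Benjamini-Hochberg adjustment over 22690 probe sets. The replicate numbers come from the titles and define the pairs. Deviations from line means correlated at r of 0.26 to 0.84 in the 9 equal-numbered pairs of arrays of different lines. In the other 18 pairs r was -0.73 to 0.11. Deviations cancel out within a line, so these ranges are not independent of each other. The fit was tested on data simulated for SV5-NN4 against SV5 over 22690 probe sets with independent normal noise. Changes were given only to probe sets at or above the median mean. It recovered 26 of 100 that were given a 2-fold change and 78 of 100 given a 4-fold change, and called 3 unchanged ones. Pcdhb9, Pcdhb19 and the other beta probe sets lie under that median, so these rates do not cover them. The members and lists were chosen with earlier results of these data known. Named genes were all members, Taf7, Ctcf and Dnmt3b, called genes of a list (at most 4), and the 10 genes most like the members. Other genes named (other beta genes, Slc25a2, Pcdh1, Pcdh7, Pcdh18, Dnmt1, Nipbl, Setdb1, Adam10, Col1a1, Fn1, Vim and the neuron markers) fall outside that rule and were chosen after their values were seen. No sequence of a member is shown.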

Additional observations from a re-analysis of the deposited data

How the results depend on the processing

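All 7 members were lower in SV5-NN4 than in SV5 and than in NIH 3T3 under every alternative that could be run for them; Pcdhb9 and Pcdhb19 fall under the filter on dim probe sets. Without the replicate block the calls were 0 of 7 members between SV5-NN4 and SV5 and 0 of 7 between SV5-NN4 and NIH 3T3, and over all probe sets 19 and 18, with 1 between SV5 and NIH 3T3; the paired fit had 4, 3, 196, 375 and 14. With only the arrays of the lines compared, 7 members and 1504 probe sets were called between SV5-NN4 and SV5. There, 18 probe sets, Pcdhb7 and Pcdhb9 among them, were called between SV5-NN4 and NIH 3T3, and 0 between SV5 and NIH 3T3. That last count was also 0 with a pseudocount of 16, with quantile normalization and with arrays centred on their medians, and 6 with an intensity trend. Leaving out single arrays gave 1 to 7 members and 14 to 950 probe sets between SV5-NN4 and SV5, 0 to 3 members and 13 to 1239 probe sets between SV5-NN4 and NIH 3T3, and 0 to 49 probe sets between SV5 and NIH 3T3. The cause of these shifts was not tested. None of the 16 other beta probe sets was called by limma under the settings that tested them; the filter on dim probe sets leaves none of them, and the alpha probe sets were not run under these alternatives. A pseudocount of 16 shrank the difference of Pcdhb9, which lies within the control range in SV5-NN4, to -1.54 between SV5-NN4 and SV5. The number of arrays and, for Pcdhb9, the floor limit what can be read. Pcdhb7 and Pcdhb19 also came near the floor on SV5-NN4 replicate 3, at 4.34 and 4.47.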
